A study of Mus musculus with 4 samples.

Results

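The Hox-C cluster on mouse chromosome 15 holds 9 homeobox genes, Hoxc4, Hoxc5, Hoxc6, Hoxc8, Hoxc9, Hoxc10, Hoxc11, Hoxc12 and Hoxc13, named here in order from the 3′ end of the cluster. All probes whose RefSeq transcript belongs to a member were taken from the arrays, which gave 1 probe and 1 spot for each of the 9 genes, out of 20257 genes named in the same way. Expression was measured on 4 one-colour arrays, 1 for each mouse ES cell line, and all 4 lay on 1 slide and were read in 1 scan. Parental ES cells are EB3, an undifferentiated mouse embryonic stem cell line kept in medium with LIF. The other lines derive from EB3 and were made with a Tol2 transposon vector, pT2A-CMH, under hygromycin B selection, each grown from a picked colony. Clones #1 and #9 express FLAG-tagged Nup98-HoxA9, which joins the N-terminal part of human Nup98, a nuclear pore protein, to the C-terminal part of HoxA9 with its DNA-binding homeodomain. HoxA9-Ct ES expresses the HoxA9 part alone. The fusion arises in leukaemia by chromosome translocation, and the study asked which genes it affects in ES cells. Each clone carries its own transposon insertions and has no second culture here, so the spread between clones #1 and #9 is the only replicate error. Parental ES carries no vector, and the clones had also passed drug selection and colony growth, which cannot be told apart from the transgene in a comparison with it.

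Hox genes encode transcription factors that give cells their position along the body axis. The clusters are read in order, with genes at the 3′ end switched on earlier and further forward in the embryo than those at the 5′ end. The study describes the clusters in ES cells as bivalent, with both an active and a repressive histone mark, kept through Polycomb complexes. Hoxc4, Hoxc5 and Hoxc6 belong to cervical and thoracic levels, Hoxc8 and Hoxc9 to thoracic levels, Hoxc10 and Hoxc11 to lumbar and sacral levels, and Hoxc12 and Hoxc13 lie at the 5′ end, where Hoxc13 is also needed for hair and nails. Members of the Hox-A, Hox-B and Hox-D clusters with the same number are paralogues and bind similar DNA.

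A promoter sequence was given for 1 of the 9 members, Hoxc4, and is shown with those of its paralogues Hoxb4 and Hoxd4. They were picked because limma called Hoxc4 and Hoxb4 higher in the clones than in the parental line and did not call Hoxd4 in that comparison. Hoxa4, which limma also called higher in the clones, is not shown. A link between motifs and expression was not tested. Each runs from 250 bases before to 50 bases after the start of the gene in RefSeq. Capitals mark matches, on either strand, to 6 motifs. TATAAA is the TATA box of many core promoters. TTTATG is a site bound by caudal and posterior Hox proteins, and TTTACG is a variant of it. TGATTTA is read by Hox proteins together with a Meis or Pbx partner, while TGATTGAT is a longer site of that kind. TAATTA is a core site of many homeodomains.
Hoxc4 (chr15:103034145-103034444, GRCm38.p6, plus strand): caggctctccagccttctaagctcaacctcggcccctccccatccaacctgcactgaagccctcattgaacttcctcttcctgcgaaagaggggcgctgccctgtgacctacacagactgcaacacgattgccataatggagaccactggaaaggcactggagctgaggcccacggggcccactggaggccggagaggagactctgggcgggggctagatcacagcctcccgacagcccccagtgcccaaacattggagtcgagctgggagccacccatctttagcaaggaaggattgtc
Hoxb4 (chr11:96318017-96318316, GRCm38.p6, plus strand): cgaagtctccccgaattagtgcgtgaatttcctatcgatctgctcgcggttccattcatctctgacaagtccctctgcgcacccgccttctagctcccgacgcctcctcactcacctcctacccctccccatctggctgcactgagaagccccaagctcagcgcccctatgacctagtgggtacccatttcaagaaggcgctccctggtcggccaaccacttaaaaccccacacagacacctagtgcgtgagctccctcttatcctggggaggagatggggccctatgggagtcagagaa
Hoxd4 (chr2:74721728-74722027, GRCm38.p6, plus strand): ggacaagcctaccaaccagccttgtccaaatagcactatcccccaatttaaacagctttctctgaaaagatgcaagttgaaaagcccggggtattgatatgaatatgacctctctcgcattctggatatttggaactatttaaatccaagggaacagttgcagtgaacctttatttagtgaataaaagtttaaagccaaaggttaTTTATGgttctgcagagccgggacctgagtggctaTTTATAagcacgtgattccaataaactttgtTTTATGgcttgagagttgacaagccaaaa
Hoxc4 and Hoxb4 held none of the 6 motifs in these 300 bases, while Hoxd4 held TTTATG at 2 places and TATAAA at 1, the latter on the opposite strand. Of all 32851 promoters of this length, 13.6% held TATAAA, 11.9% held TTTATG, 5.29% held TAATTA, 3.03% held TTTACG, 2.97% held TGATTTA and 0.746% held TGATTGAT. CpG sites numbered 9 in Hoxc4, 14 in Hoxb4 and 4 in Hoxd4, against a median of 7 over all promoters.

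The 7 ES cell markers Pou5f1, Sox2, Nanog, Zfp42, Esrrb, Klf4 and Tfcp2l1 were well above background in all 4 lines and limma called none of them between the clones and the parental line. Of 5 primitive endoderm markers, limma called 3 higher in the clones (Gata6, Sox17 and Pdgfra). All 5, with Gata4 and Sox7, were well above background in both clones, 4 in the parental line and 3 in the HoxA9-Ct line, and their summed scaled signal was 190 in the parental line, 722 in clone #1, 866 in clone #9 and 107 in the HoxA9-Ct line. The sum for 4 trophectoderm markers, 3 of them called higher in the clones (Cdx2, Elf5 and Krt8), was 1776, 2815, 2872 and 1389 in the same order. Most of that sum came from Tfap2c, which was not called, with unscaled signals of 1639, 2199, 2049 and 1069. Elf5 was well above background in clone #1 and in no other line. Both sums were higher in the clones, as the Hox-C genes were, and their part in the results was not tested. Of 7 primitive streak and posterior mesoderm markers 0 were called, and T, Mixl1, Mesp1, Msgn1 and Wnt3a were not well above background in any line. Of 5 neural markers 0 were called higher in the clones than in the parental line and 1, Pax6, lower. The HoxA9-Ct line also differed from the parental line at some markers, as a difference between single arrays. Nkx1-2 was at least 4.30-fold higher there, and Sox17 was 2.94 lower on the log2 scale and not well above background. In a bulk array, more cells that express a gene and more RNA per cell cannot be told apart. The probe for endogenous Nup98 lay 0.20 lower in clone #1 and 0.39 lower in clone #9 than in the parental line on the log2 scale. Whether it can detect the human transgene, for which no probe was assigned, was not examined.

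The signals below are background-subtracted intensities in arbitrary units, each with the error that the image software attaches to its spot. Signals of different probes cannot be compared. Ratios between lines were taken after each array was scaled to the 75th percentile of its spots (229 in the parental line, 222 in clone #1, 253 in clone #9 and 209 in the HoxA9-Ct line), and "well above background" is the call of the image software.

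Hoxc6 and Hoxc4 showed the largest differences in the cluster. The Hoxc6 signal was 2.46 ± 2.47 in the parental line, 819 ± 81.9 in clone #1, 162 ± 16.3 in clone #9 and 2.32 ± 2.33 in the HoxA9-Ct line. It was thus well above background in both clones and in neither of the other lines. Relative to the lowest signal that was called well above background in the parental line, Hoxc6 was at least 71.4-fold higher in clone #1 and at least 12.4-fold higher in clone #9. The Hoxc4 signal was 10.8 ± 2.67 in the parental line, 745 ± 74.6 in clone #1, 217 ± 21.8 in clone #9 and 23.8 ± 3.31 in the HoxA9-Ct line. It stood well above background in every line but the parental line, and was at least 65.0-fold higher in clone #1, at least 16.6-fold higher in clone #9 and at least 2.20-fold higher in the HoxA9-Ct line. Both clones lay far above the HoxA9-Ct line for Hoxc4, by 14.9-fold on average.

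Hoxc5, which lies between them, gave 4.25 ± 2.92 in the parental line, 75.03 ± 7.93 in clone #1, 22.3 ± 3.38 in clone #9 and 2.70 ± 2.72 in the HoxA9-Ct line. The 2 clones were the lines well above background, and Hoxc5 was at least 6.54-fold higher in clone #1 and at least 1.71-fold higher in clone #9 than in the parental line. In human cells HOXC4, HOXC5 and HOXC6 are known to share an upstream exon in some transcripts, and the probes do not tell from which start a transcript came.

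Further towards the 5′ end, Hoxc8 gave 2.67 ± 2.68 in the parental line, 13.0 ± 2.72 in clone #1, 3.73 ± 2.39 in clone #9 and 2.57 ± 2.57 in the HoxA9-Ct line. Clone #1 alone was well above background. Its scaled log2 level of -4.09 was 1.13-fold above the lowest level called well above background in the parental line (-4.28). That level is not a firm limit, since Pdgfra at -4.05 was not called there, so no lower bound over the parental line holds for Hoxc8. Hoxc9 gave 5.35 ± 3.33 in the parental line, 37.8 ± 4.87 in clone #1, 38.2 ± 4.78 in clone #9 and 3.07 ± 3.08 in the HoxA9-Ct line. For Hoxc9 the clones were level with each other and apart from the other lines, at least 3.29-fold above the parental line in clone #1 and at least 2.92-fold in clone #9.

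**Figure D1:**
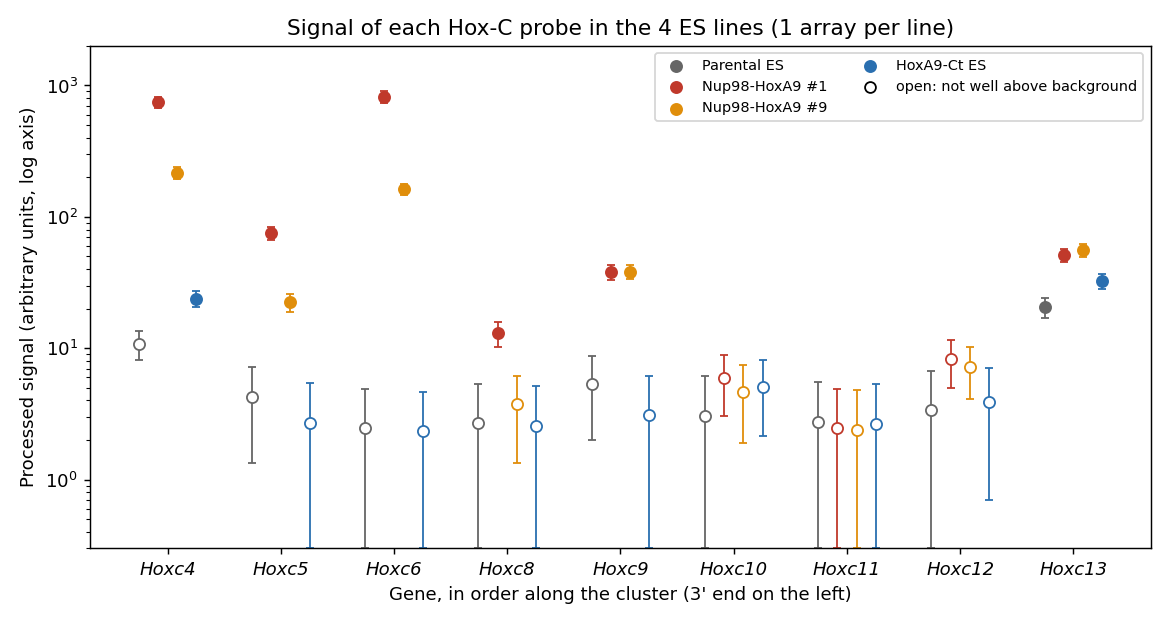
Processed signal (log axis) of the probe of each Hox-C gene in the 4 ES lines, 1 array per line, with genes in order from the 3′ end; bars are the error given by the image software (cut at the foot of the axis) and open points were not well above background. Clone #1 lies above clone #9 from Hoxc4 to Hoxc6 (819 against 162 for Hoxc6), the clones are level at Hoxc9 and Hoxc13, and Hoxc10 to Hoxc12 are open in every line.

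Hoxc10, Hoxc11 and Hoxc12 were not well above background in any line. Their signals ran from 2.40 for Hoxc11 in clone #9 to 8.23 for Hoxc12 in clone #1, and no fold can be given. Of all 55562 probes with a value on every array, 45.1% were not well above background in any line. The 5′-most gene, Hoxc13, was well above background in all 4 lines, with 20.4 ± 3.53 in the parental line, 51.3 ± 5.73 in clone #1, 55.7 ± 6.12 in clone #9 and 32.3 ± 4.20 in the HoxA9-Ct line. These are ratios to the parental line of 2.59 in clone #1, 2.47 in clone #9 and 1.73 in the HoxA9-Ct line. All 3 transgenic lines were above the parental line, and the clones exceeded the HoxA9-Ct line by 1.46-fold.

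Of the 9 members, 4, namely Hoxc4, Hoxc5, Hoxc6 and Hoxc9, were well above background in both clones and not in the parental line, which holds for 1.73% of all probes. Hoxc4 and Hoxc6, 2 of 9, were measured at over 10-fold above the parental line in both clones, against 0.0900% of probes. With normexp background correction 0 of 9 were, as clone #9 then lay 1.98 above the parental line for Hoxc4 and 1.93 for Hoxc6 on the log2 scale. The groups were then compared with limma over all 55562 probes, with Benjamini-Hochberg adjustment. Again 4 of 9 members were called higher in the Nup98-HoxA9 clones than in the parental line, beside 0.781% of all probes, and none was called lower. The log2 differences were 7.16 ± 0.56 (SE) for Hoxc6 (limma adjusted p = 8.11e-34), 5.17 for Hoxc4 (2.42e-17), 3.22 for Hoxc5 (2.77e-06) and 2.78 for Hoxc9 (0.000141), all with the same SE. These 4 differences were present in 2 of 2 clones. Since the parental signals were not called well above background, these are differences of measured values. As lower bounds, the mean of the clones was at least 29.8-fold higher for Hoxc6, 32.9-fold for Hoxc4, 3.34-fold for Hoxc5 and 3.10-fold for Hoxc9. Hoxc8 (adjusted p = 0.424), Hoxc13 (0.413) and Hoxc12 (0.708) missed the threshold in limma, and Hoxc10 and Hoxc11 had adjusted p of 1.00. With values below the background limit raised to it, Hoxc13 passed as well (limma adjusted p = 0.0275).

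Those calls rest on a spread shared by all probes, an SD of 0.454 on the log2 scale, whereas the clones differed by an SD of 1.79 for Hoxc6, 1.39 for Hoxc4 and 1.37 for Hoxc5. In 3 limma fits that let the spread differ from probe to probe no member was called. These were quantile normalization, dim probes removed, and the parental and HoxA9-Ct lines pooled as the reference. With dim probes removed, Hoxc10, Hoxc11 and Hoxc12 were not tested. The lowest adjusted p of a member in these limma fits was 0.178, for Hoxc9 against the pooled reference. Those 3 fits called 0, 0 and 9 of all probes higher, with 5069, 2224 and 5256 probes at an unadjusted p under 0.05 in either direction. With a spread that followed the signal level (trend and robust settings) limma called 4 of 9, with adjusted p of 2.04e-13 for Hoxc6, 1.11e-10 for Hoxc4, 0.000182 for Hoxc5 and 0.00183 for Hoxc9. With normexp background correction limma called Hoxc4 and Hoxc6 but not Hoxc5 (adjusted p = 0.146) or Hoxc9 (0.888).

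The HoxA9-Ct line shares its transgene's homeodomain with the fusion but not the Nup98 part. Against the HoxA9-Ct line, which was compared with the same 2 clone arrays, limma called 4 of 9 members higher in the Nup98-HoxA9 clones (0.673% of all probes). They were Hoxc6, with a log2 difference of 7.11 (adjusted p = 2.06e-33), Hoxc4 with 3.90 (2.18e-09), Hoxc5 with 3.74 (1.35e-08) and Hoxc9 with 3.45 (3.53e-07). Between the HoxA9-Ct line and the parental line, which are 1 array each, so that the spread comes from the 2 clones, limma called 0 of 9 members in either direction, beside 0.405% of all probes. Hoxc4 alone had an unadjusted p under 0.05 there, with a log2 difference of 1.27 ± 0.64 and an adjusted p of 1.00 in limma.

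The clones did not carry the Hox-C genes at the same level. Hoxc4 was 3.91-fold, Hoxc5 3.83-fold and Hoxc6 5.76-fold higher in clone #1 than in clone #9, or 1.97 ± 0.20, 1.94 ± 0.27 and 2.53 ± 0.20 on the log2 scale with the error carried over from the image software. Hoxc8 in clone #1 was 1.44-fold above the lowest signal called well above background in clone #9, which is not a firm limit. Hoxc9 and Hoxc13 differed by 0.17 ± 0.26 and 0.07 ± 0.23, which is within that error. Of the 5 members well above background in both clones, 3 were more than 2-fold higher in clone #1, against 0.893% of the 26871 such probes. Among the 10251 probes whose mean level in the clones lay between those of Hoxc5 and Hoxc4, the figure was 1.23%. With 1 array for each clone, a difference between the clones has no replicate check and no p-value is given. Spots of a probe printed 10 times on an array had a median SD of 0.0651 to 0.0713 on the log2 scale where all 10 were well above background, smaller than the differences at Hoxc4, Hoxc5 and Hoxc6.

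The remainder of chromosome 15 ran the other way. Over its 636 probes outside Hox-C that were well above background in all lines, clone #9 was higher than clone #1 by a median of 0.38 on the log2 scale, while probes of other chromosomes had a median of -0.06 for the same difference. Clone #9 exceeded the parental line by a median of 0.40 on chromosome 15, and clone #1 by 0.02. Of the 666 chromosome 15 probes outside Hox-C that were well above background in both clones, 0 were as far to the side of clone #1 as Hoxc4, Hoxc5 or Hoxc6, while 34 were as far as Hoxc9 and 59 as far as Hoxc13. Relative to the chromosome 15 median, clone #1 exceeded clone #9 by 5.07-fold for Hoxc4, 4.97-fold for Hoxc5 and 7.49-fold for Hoxc6, and by 1.46-fold and 1.36-fold for Hoxc9 and Hoxc13. The chromosome 15 shift was thus opposite in sign to the difference at the 3′ genes. Whether clone #9 carries extra copies of the chromosome was not tested.

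**Figure D2:**
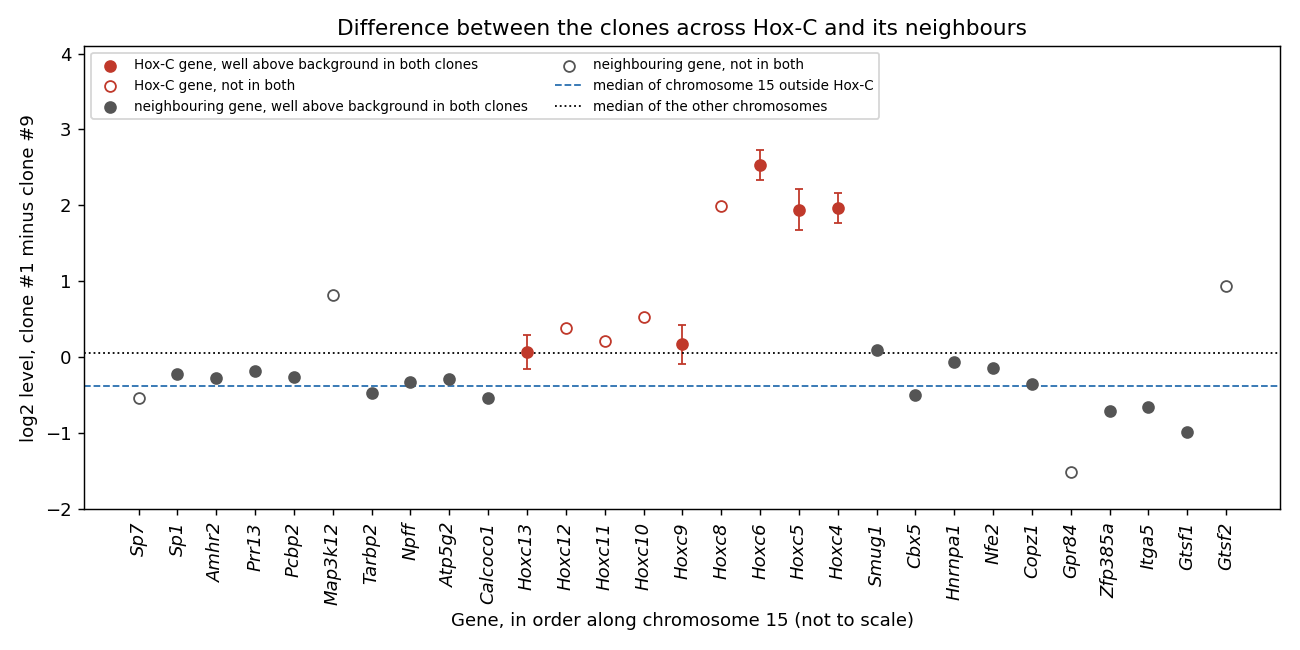
Log2 level in clone #1 minus clone #9 for the Hox-C genes and the 10 nearest genes with a probe on each side, in order along chromosome 15 and not to scale; bars are the error carried over from the image software, and lines are medians of chromosome 15 and of the other chromosomes. Hoxc4, Hoxc5 and Hoxc6 lie between 1.94 and 2.53, while filled neighbours lie between -0.98 and 0.09.

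Neighbouring genes on either side were read for the same difference. Of the 10 nearest genes with a probe on each side, 8 beyond Hoxc13 and 8 beyond Hoxc4 were well above background in all lines. The difference of clone #1 from clone #9 ran from -0.54 to -0.18 beyond Hoxc13 and from -0.98 to 0.09 beyond Hoxc4, with a median of -0.31 over all 16. Smug1, a DNA glycosylase gene and the nearest gene with a probe beyond Hoxc4, was 0.70 higher in clone #1 and 0.60 higher in clone #9 than in the parental line on the log2 scale, and Calcoco1, the nearest with a probe beyond Hoxc13, was 0.05 and 0.60 higher. In RefSeq 3 genes without a probe lie between each of them and the cluster. Among neighbours well above background in all lines, the largest ratio in a single clone was that of Itga5, an integrin gene on the Hoxc4 side, at 0.57 in clone #1 and 1.22 in clone #9, and limma called none of the 10 genes on that side. Among genes not well above background in every line, 1 on the Hoxc13 side was called, Sp7, a bone-forming transcription factor gene, with signals of 16.2 in the parental line, 2.51 in clone #1, 4.13 in clone #9 and 3.15 in the HoxA9-Ct line (limma adjusted p = 0.00276, lower in the clones), and it was named after its value was seen. No RefSeq gene inside the cluster other than the 9 members had a probe assigned by accession, so the long noncoding RNA and microRNA genes there are not analysed here.

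The paralogues of the same number gave a scale for the cluster. Of 20 paralogues in Hox-A, Hox-B and Hox-D, limma called 11 higher in the Nup98-HoxA9 clones than in the parental line, namely 6 of 7 in Hox-A, 5 of 6 in Hox-B and 0 of 7 in Hox-D. Hoxa10 was the furthest from the parental line among them, at 8.13 in clone #1 and 7.52 in clone #9 on the log2 scale, or at least 56.4-fold for the mean of the clones. Hoxd4, by contrast, was well above background in the HoxA9-Ct line and in no other line, at least 2.41-fold above the parental line. The measured log2 difference was 3.04, and limma called it higher there. That is a difference between single arrays, with the spread taken from the clones. Of 2 Hoxa9 probes, the one read here did not rise well above background in the HoxA9-Ct line. Whether it can detect the HoxA9 transgene of that line was not examined.

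The order of clone #1 and clone #9 varied between clusters. Among group 4 genes the difference of clone #1 from clone #9 was -0.19 for Hoxa4, 0.71 for Hoxb4 and 1.97 for Hoxc4. Among group 5 it was 0.03 for Hoxa5, 0.93 for Hoxb5 and 1.94 for Hoxc5, and among group 6 it was 0.19 for Hoxa6, 1.15 for Hoxb6 and 2.53 for Hoxc6. In these 3 groups the Hox-C gene lay furthest to the side of clone #1 and the Hox-A gene near 0. Group 9 did not follow that order, with -0.08 for Hoxa9, 1.06 for Hoxb9 and 0.17 for Hoxc9. Hoxa10 and Hoxa11, whose Hox-C partners were not well above background, differed by 0.62 and 1.01, and Hoxb8 by 1.24. Group 13 ran from -1.01 for Hoxd13 and -0.80 for Hoxb13 to 0.07 for Hoxc13. Over all genes well above background in both clones, the median was 0.11 for 6 Hox-A genes, 1.00 for 6 Hox-B genes and 1.94 for 5 Hox-C genes, as a description with 1 array for each clone.

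**Figure D3:**
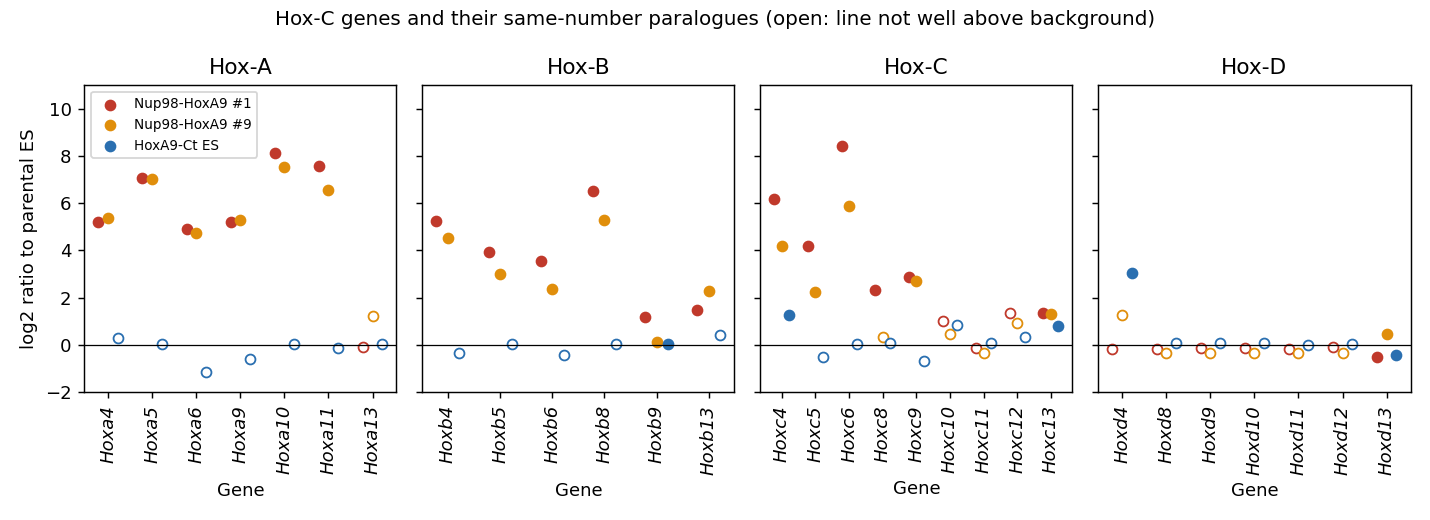
Log2 ratio to the parental line of the Hox-C genes and their same-number paralogues in clone #1, clone #9 and the HoxA9-Ct line, 1 panel for each cluster; open points were not well above background in the line plotted. The clones differ by at most 0.19 from Hoxa4 to Hoxa9 and by 0.62 and 1.01 at Hoxa10 and Hoxa11, they lie apart at Hoxc4, Hoxc5 and Hoxc6 (8.42 against 5.90 for Hoxc6), and Hox-D stays near 0 except Hoxd4 and Hoxd13.

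Regulators of Hox genes were counted beside the members. Of 9 TALE cofactor genes, whose products bind DNA with Hox proteins, limma called 1 higher in the clones than in the parental line, Pbx3, at 2.65 in clone #1 and 2.88 in clone #9 on the log2 scale (adjusted p = 0.000158). Of 3 caudal genes, which activate posterior Hox genes in the embryo, Cdx2 was called (adjusted p = 1.04e-05), at least 1.82-fold higher for the mean of the clones. Cdx2 was measured above the parental line by 2.77 in clone #1, 3.39 in clone #9 and 2.34 in the HoxA9-Ct line on the log2 scale. In the HoxA9-Ct line it was not well above background. Of 8 genes of retinoic acid metabolism and response, 5 were called higher, among them Cyp26a1, which degrades retinoic acid, at least 2.80-fold, and the receptor gene Rarb, at least 3.37-fold. Stra6, 1 of the 5, was well above background in clone #9 and in no other line. Clone #9 was the higher for all 6 of these genes that were well above background in both clones, with a median difference of -1.07 for clone #1 from clone #9, opposite in sign to Hoxc4, Hoxc5 and Hoxc6. Of 17 Polycomb and Trithorax genes with a probe, 0 were called, with a median of -0.03 on the log2 scale, beside -0.18 over all probes. The export receptor gene Xpo1, whose product Crm1 was the partner of the fusion that the study examined, was not called either, at -0.12 in clone #1 and -0.14 in clone #9.

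The genes whose ratios to the parental line lay nearest to the median of the 5 members well above background in both clones (4.19 in clone #1, 2.69 in clone #9 and 0.05 in the HoxA9-Ct line) were sought among 16943 named probes well above background in both clones. By Euclidean distance over these 3 values the nearest were Tmem132c (0.120), Hoxb5 (0.400), Hoxb6 (0.843), Smarca2 (0.886) and Runx1 (0.991). Tmem132c, a membrane protein gene, was at 4.30, 2.68 and 0.07. Smarca2, a SWI/SNF ATPase gene, was at 3.63 in clone #1, and Runx1, a blood transcription factor gene, at 3.21, 2.85 and 0.07. None of the 5 was well above background in the parental line, so these are ratios of measured values to a parental signal without that call.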

How the data were processed

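Total RNA of 4 ES cell lines was labelled with Cy3 and hybridised to SurePrint G3 Mouse GE 8×60K arrays. The authors extracted the images with Feature Extraction 10.10.1.1 (per the submitters' processing notes), and the deposited scanner files give an intensity for each spot after background subtraction and detrending. The deposited series matrix holds the same intensity multiplied by 1 constant per array (medians of 46.3, 46.8, 51.8 and 48.7). How the constants were set is not given in the sources used here.

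The log2 of the 75th percentile of the 59305 non-control spots of its array was subtracted from each log2 intensity, and outlier spots were left out. Per array, 49.9% to 53.0% of spots passed as well above background and 0 were saturated, and with 1 array per line the number of arrays limits the precision. RefSeq accessions named 26762 of 55681 probes (GRCm38.p6 table, array annotation on mm9, so no table coordinates are given for genes other than printed promoters). A gene with several probes was read at the one with the highest mean.

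limma 3.58.1 in R 4.3.3 (lmFit, eBayes, 3 groups, 1 residual degree of freedom) used an adjusted p of 0.05 and was tested on simulated data. All simulated probes had the same SD, so that test cannot show how the calls behave where the spread differs between probes. A fold against a line not well above background was computed against the lowest intensity called well above background in that line, or the probe's own where higher. That intensity is not a firm detection limit. In the parental line it was -4.28 on the scaled log2 axis, while Pdgfra at -4.05 was not called. Normexp (offset 50) used the median pixels of spot and background. Counts and medians used Python 3.11.15, numpy 2.4.6 and pandas 2.3.3. Genes named are the 9 members, same-number paralogues, the 10 nearest neighbours on each side, listed regulators and markers, and the 5 most alike profiles. Members and lists were chosen with earlier results of these data known. Alternatives were quantile, median and normexp processing, the series matrix, a floor, a filter on dim probes, trend and robust settings, means over probes, the chromosome 15 shift subtracted, a pooled reference, outlier spots kept and leaving out each clone. Array probes outside these sets are not described.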

Additional observations from a re-analysis of the deposited data

How the results depend on the processing

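The 4 members called higher in the clones than in the parental line, and the 4 called higher than in the HoxA9-Ct line, came to 2 and 2 with normexp, 0 and 0 with quantile normalization, 0 and 0 with dim probes removed, and, for the former, 0 with both reference lines pooled. The fits that called none estimated a finite prior and so let the spread differ between probes. All other settings kept both counts within 1.5 times, and no setting called a member between the HoxA9-Ct and parental lines. The 2 members over 10-fold above the parental line in both clones came to 0 with normexp, whose offset of 50 exceeds the signals of the parental line, and to 2 to 3 when either clone was left out, and the 4 members well above background in both clones and not in the parental line to 4 to 5. The median difference of clone #1 from clone #9 over 5 members, 1.94 on the log2 scale, was 0.92 with normexp, 2.42 with the chromosome 15 shift of clone #9 subtracted, and 0.12 over Hoxc9 and Hoxc13 alone, a split chosen after seeing the data, against 1.97 over Hoxc4, Hoxc5 and Hoxc6. Of 171 single-gene ratios recomputed over 7 settings, 128 moved by no more than 0.0950 (the spot error of a difference), 43 moved further, and 0 of the ratios past 2-fold with a line well above background changed sign. The chromosome 15 median kept its sign in all settings run. No paired analysis was possible because the parental and HoxA9-Ct lines have 1 array each and share no replicate pairs with the clones. Signals near background limit Hoxc8 and Hoxc10 to Hoxc12, and 1 probe per gene gives no check of a probe by another.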
